A study of Mus musculus with 6 samples.

Results

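The 8 genes described here, Ifi27, Ifi27l2a, Ifitm1, Ifitm2, Ifitm3, Ifitm6, Bst2 and Ly6e, encode small membrane or membrane-anchored proteins that interferon is known to induce in many cell types. Their probe sets were taken by gene symbol, as all those that the platform annotation assigns to one of these names, and the list of names was drawn up with earlier results of these data known. The 8 genes had 10 probe sets, each assigned to a single gene, out of 18193 genes with such a probe set. All 8 were bright enough to be tested among 12811 tested genes. The samples were total RNA from ventricle tissue of 6 mouse hearts, 1 expression array per animal. Every animal, controls included, lacked Rag2 (RAG2KO), a gene needed to form mature T and B lymphocytes. In 3 animals Trex1 was wild type (Trex1 WT), and in 3 it was knocked out (Trex1 KO). Per the series' design text the animals were 3 pairs of littermates, labelled A, B and C in the titles, with 1 animal of each genotype in a pair. The labels used here state no strain, age, sex or treatment, nor the tissue in which Trex1 was deleted. The comparison asks how far these interferon effectors differ in the heart when Trex1, a nuclease that removes cytosolic DNA, is missing. The probe set for Trex1, which the annotation shares with the overlapping gene Atrip, went from 714 to 9.45 in pair A, from 340 to 20.6 in pair B and from 887 to 34.2 in pair C (limma adjusted p = 0.00109). The labels do not say which stretch of Trex1 was removed, so whether this probe set covers it is unknown here.

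Type I interferon binds its receptor on the cell surface, and the kinases JAK1 and TYK2 then activate transcription factors that enter the nucleus. These factors bind interferon-stimulated response elements in the promoters of their target genes. The targets studied here act at membranes. IFITM proteins sit in the plasma membrane and in endosomes and hinder the fusion of enveloped viruses with the cell. BST2, also called tetherin, holds budding virus particles at the cell surface. LY6E is anchored to the surface by a lipid and alters the entry of several viruses, and proteins of the IFI27 family are found at mitochondrial and other inner membranes.

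The starts of Bst2 and of 3 neighbouring Ifitm genes are shown because the size of the log2 difference between genotypes varied among them, and because the response element named above can be read from the sequence. RefSeq promoter windows were matched for 5 of the 8 genes, with no window for Ifi27, Ifi27l2a or Ly6e. The windows to print were chosen with the differences known. Each window runs from 250 bases before to 50 bases after the gene's start, 5′ to 3′ along the gene's own strand, in assembly GRCm38.p6. The windows are chr8:71537423-71537722 (minus strand) for Bst2, chr7:141010695-141010994 (minus strand) for Ifitm3, chr7:140955912-140956211 (minus strand) for Ifitm2 and chr7:140967826-140968125 (plus strand) for Ifitm1. Capitals mark every match to either of 2 motifs, searched on both strands.
Bst2: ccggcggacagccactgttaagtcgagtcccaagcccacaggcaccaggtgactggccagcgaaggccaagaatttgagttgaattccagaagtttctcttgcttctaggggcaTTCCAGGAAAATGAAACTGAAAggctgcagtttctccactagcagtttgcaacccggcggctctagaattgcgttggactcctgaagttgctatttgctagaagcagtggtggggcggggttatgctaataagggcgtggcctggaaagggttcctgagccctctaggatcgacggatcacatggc
Ifitm3: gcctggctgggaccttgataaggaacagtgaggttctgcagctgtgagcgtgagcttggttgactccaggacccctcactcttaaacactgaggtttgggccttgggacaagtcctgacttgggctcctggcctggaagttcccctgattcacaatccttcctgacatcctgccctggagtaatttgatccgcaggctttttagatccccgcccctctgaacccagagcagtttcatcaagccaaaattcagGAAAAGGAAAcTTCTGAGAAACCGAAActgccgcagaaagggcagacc
Ifitm2: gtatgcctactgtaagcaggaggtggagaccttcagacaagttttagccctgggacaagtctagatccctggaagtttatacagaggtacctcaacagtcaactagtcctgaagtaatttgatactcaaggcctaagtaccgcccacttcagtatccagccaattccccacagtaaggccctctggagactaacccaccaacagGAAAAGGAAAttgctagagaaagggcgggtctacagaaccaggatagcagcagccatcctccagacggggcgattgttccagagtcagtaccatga
Ifitm1: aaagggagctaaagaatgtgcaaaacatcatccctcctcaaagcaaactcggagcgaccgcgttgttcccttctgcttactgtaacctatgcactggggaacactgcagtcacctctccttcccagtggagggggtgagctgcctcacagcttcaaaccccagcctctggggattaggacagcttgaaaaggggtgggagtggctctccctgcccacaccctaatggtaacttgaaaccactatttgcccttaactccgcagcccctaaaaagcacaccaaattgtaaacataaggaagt

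The first motif was the core of the interferon-stimulated response element, written as GAAANNGAAA, and the second was the core of the gamma-activated site, an element known from interferon-gamma targets, written as TTCNNNGAA. Of 32851 windows of the same length in the table, 3.44% held the first motif at least once and 0.225% held it at 2 or more positions, while 8.30% held the second. The Bst2 window held the first motif at 2 overlapping positions, from base -130 to -121 and from -124 to -115, and the second motif from -136 to -128, so that the 3 matches formed a single stretch. The Ifitm3 window held the first motif from base 3 to 12 and from 20 to 29 after the start, with the second motif from 14 to 22 overlapping the latter. The Ifitm2 window held the first motif once, from -46 to -37, and the Ifitm1 window held neither. The window of Ifitm6, which is not printed, held the second motif only, from -10 to -2. A match describes these letters and was not tested as a binding site.

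Of the 8 genes, Ifi27 and Ifi27l2a passed the test without the block, and Ifi27 had the largest difference. The Ifi27 signal went from 1653 in the Trex1 WT heart to 15526 in its Trex1 KO littermate in pair A, from 2247 to 18102 in pair B and from 1812 to 20998 in pair C. The lowest Trex1 KO heart exceeded the highest Trex1 WT heart by 13279 signal units, against SDs of 307 and 2737 (n = 3). The difference of Ifi27 was 3.25 on the log2(signal + 16) scale (SE 0.14, 95% interval 2.93 to 3.57, limma adjusted p = 6.54e-06). Within the pairs the signal ratios on that scale were 9.31, 8.01 and 11.5. Among the tested genes Ifi27 ranked 3 by the size of its difference and 1 by its p-value. A second Ifi27 probe set, whose suffix marks probes that can match several transcripts, went from 1962 to 14671, from 2370 to 17237 and from 1739 to 18707 in the same pairs. Its log2 difference of 3.05 was 0.19 below that of the first probe set.

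Ifi27l2a, a relative of Ifi27 that lies beside it on chromosome 12 in the RefSeq gene table, rose as well. From Trex1 WT to Trex1 KO its signal went from 3130 to 8672 in pair A, from 3782 to 9603 in pair B and from 4832 to 10516 in pair C. The groups did not overlap, and the 3 litters kept the same order in both genotypes, with pair A lowest and pair C highest. The log2 difference of Ifi27l2a was 1.31, a 2.48-fold rise (SE 0.15, 95% interval 0.97 to 1.65, limma adjusted p = 0.00502), and it ranked 46 by size and 22 by p-value. The within-array log2 ratio of Ifi27 to Ifi27l2a was higher in Trex1 KO than in Trex1 WT by 1.94, and by 1.75, 1.66 and 2.40 in the 3 pairs. The exact permutation p of this ratio was 0.1 (two-sided, 0.233 adjusted over 7 pairs of members compared), and 0.1 is the smallest that 3 against 3 arrays allow. The gene table lists "Ifi27" as a synonym of Ifi27l2a and "Ifi27l1" as a synonym of Ifi27, so values under these names in other sources may be exchanged. In that table the intervals of the 2 genes overlap.

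**Figure D1:**
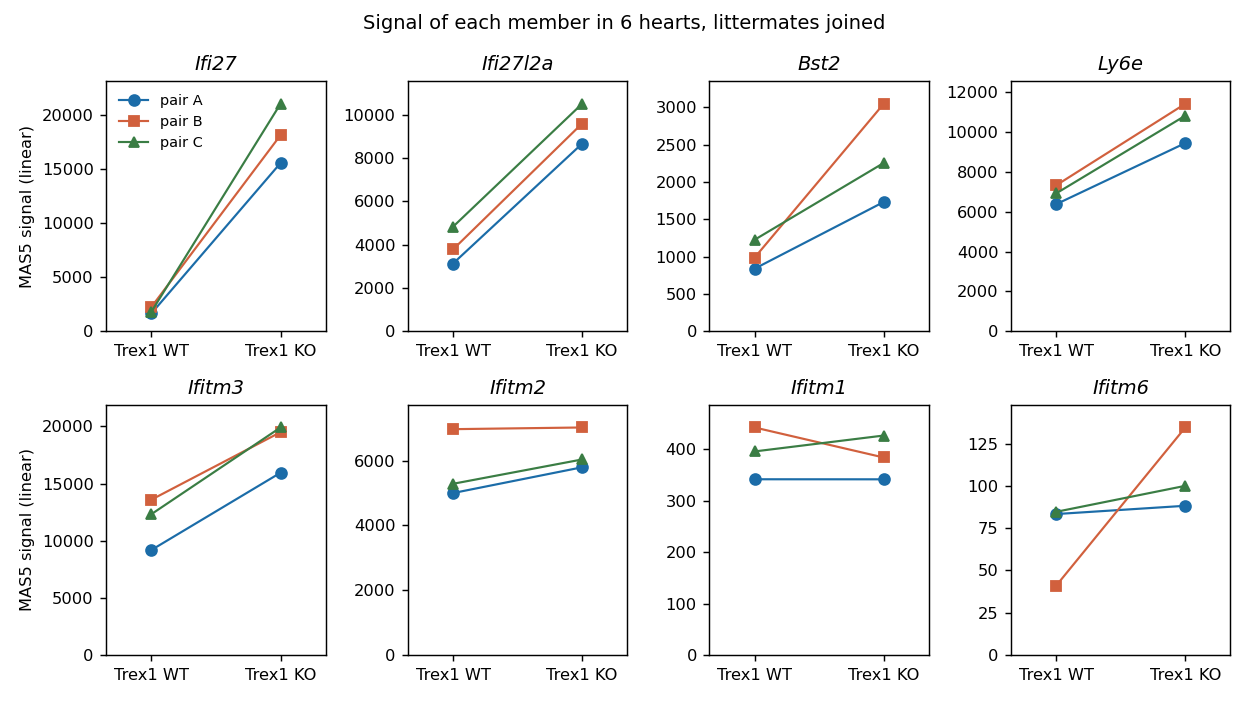
MAS5 signal on a linear scale that starts at 0 for the probe set that stands for each of the 8 genes, in Trex1 WT and Trex1 KO hearts. Lines join littermates of pairs A, B and C. Ifi27 runs from at most 2247 in Trex1 WT to at least 15526 in Trex1 KO, whereas the lines of Ifitm1 and Ifitm2 are close to flat.

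Bst2, the tetherin gene, went from 838 in Trex1 WT to 1731 in the Trex1 KO littermate of pair A, from 986 to 3046 in pair B and from 1225 to 2253 in pair C. All 3 Trex1 KO hearts lay above all 3 Trex1 WT hearts, and the Trex1 KO heart of pair B stood highest. The log2 difference of Bst2 was 1.17 (SE 0.20, 95% interval 0.72 to 1.63), with 1.03, 1.61 and 0.87 in the 3 pairs. It did not pass the threshold of 0.05 (limma adjusted p = 0.0629) and passed with the littermate pair as a block (limma adjusted p = 0.00890). Without Trex1 KO B the log2 difference was 0.96 (limma adjusted p = 0.210). Bst2 also passed without Trex1 WT C or Trex1 KO A (limma adjusted p = 0.0483 and 0.0410). Bst2 is a marker of plasmacytoid dendritic cells in mice as well as an interferon target. Of the 6 markers listed for those cells, Siglech, Ccr9 and Spib reached at most 55.6, 56.3 and 58.9 on any array, below 69.8, the highest signal among 27 control probe sets for Bacillus genes. Il3ra spanned 59.7 to 115, Klk1 217 to 382 and Cox6a2, which heart muscle also expresses, 32084 to 41195, and the groups overlapped for all 3. The part of these cells in the Bst2 difference was not tested.

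Ly6e, the lipid-anchored surface protein, showed the difference with the smallest spread between pairs among the 8 genes. Its brighter probe set, which stands for the gene, has the suffix that marks probes that can match several transcripts. That probe set read 6381 (Trex1 WT) against 9448 (Trex1 KO) for pair A, 7329 against 11424 for pair B and 6924 against 10826 for pair C. The groups did not overlap, and the log2 differences of 0.57, 0.64 and 0.64 in the 3 pairs had an SD of 0.044. The log2 difference over all arrays was 0.62, a ratio of 1.53 on that scale (SE 0.11, 95% interval 0.38 to 0.85), and did not pass (limma adjusted p = 0.0578). It passed with the littermate pair as a block (limma adjusted p = 0.0100) and after quantile normalization (limma adjusted p = 0.0164). The dimmer Ly6e probe set, without that suffix, read 591 against 595, 557 against 777 and 523 against 648 for the same pairs. The lowest of its Trex1 KO signals exceeded the highest Trex1 WT signal by only 3.12 units, and its log2 difference of 0.26 did not pass (SE 0.14, limma adjusted p = 0.955, and 0.668 with the block). The log2 differences of the 2 Ly6e probe sets lay 0.36 apart, and the mean over both gave 0.44 (limma adjusted p = 0.287).

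The 4 Ifitm genes lie side by side on chromosome 7 in the RefSeq gene table, in the order Ifitm2, Ifitm1, Ifitm3 and Ifitm6, with 0 other protein-coding genes between them. Ifitm3, the best known restriction factor of the family, went from 9190 in Trex1 WT to 15950 in Trex1 KO in pair A, from 13595 to 19502 in pair B and from 12328 to 19912 in pair C. The groups did not overlap. The log2 difference of Ifitm3 was 0.67 (SE 0.15), a ratio of 1.59 with a 95% interval of 1.26 to 2.01, and the pairs gave log2 differences of 0.79, 0.52 and 0.69. It did not pass (limma adjusted p = 0.247) and passed with the littermate pair as a block (limma adjusted p = 0.0117).

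Ifitm2, an endosomal relative of Ifitm3, read 5002 (Trex1 WT) against 5798 (Trex1 KO) for pair A, 6976 against 7028 for pair B and 5288 against 6040 for pair C. The litters differed more than the genotypes, with pair B high in both, and the groups overlapped. The log2 difference of Ifitm2 was 0.14 (SE 0.14, 95% interval -0.17 to 0.44, limma adjusted p = 0.959), and 0.714 was its adjusted p in limma with the block. Ifitm1, whose protein is found mainly at the cell surface, read 342 in both hearts of pair A, 443 against 384 for pair B and 396 against 427 for pair C. Its groups overlapped, and the log2 difference was -0.03 (SE 0.16, 95% interval -0.39 to 0.33, limma adjusted p = 0.993). The upper ends of these intervals are ratios of 1.36 for Ifitm2 and 1.26 for Ifitm1.

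Ifitm6 was dim. It read 83.3 (Trex1 WT) against 88.2 (Trex1 KO) for pair A, 41.0 against 135 for pair B and 84.6 against 99.99 for pair C. The value of Trex1 WT B lay below the highest Bacillus control. The Trex1 KO mean was 108 ± 24.1 (SD, n = 3). The groups were apart by 3.56 signal units, and pair B alone gave most of the log2 difference, with 1.40 there, 0.07 for pair A and 0.20 for pair C. The difference of 0.56 did not pass (SE 0.32, 95% interval -0.16 to 1.28, limma adjusted p = 0.955, and 0.724 with the block). It was 0.14 without pair B.

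The log2 differences varied along the Ifitm row in the same order of Ifitm3 over Ifitm2 and Ifitm1 in each pair of littermates. The within-array log2 ratio of Ifitm2 to Ifitm3 was lower in Trex1 KO, by -0.58, -0.51 and -0.50 in the 3 pairs, and that of Ifitm1 to Ifitm3 by -0.79, -0.72 and -0.59. The means were -0.53 and -0.70, and each had an exact permutation p of 0.1 (two-sided, 0.233 adjusted over the 7 pairs of members). The ratio of Ifitm1 to Ifitm2 moved by -0.17 (exact permutation p = 0.3). Ratios with the dim Ifitm6 had exact permutation p-values of 0.2 to 0.8. Of the 10 protein-coding genes flanking the Ifitm row, 5 on each side, 7 were tested and 0 passed, with log2 differences from -0.68 for Pkp3 to 0.02 for Nlrp6. The neighbours were chosen by position after the values of the members had been seen.

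**Figure D2:**
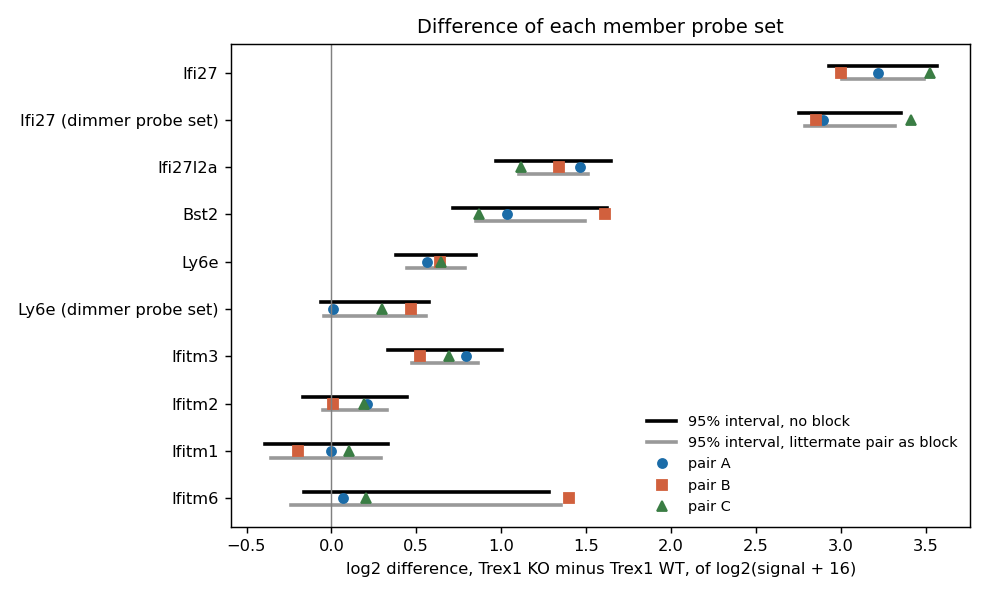
Log2 difference, Trex1 KO minus Trex1 WT, for the 10 probe sets of the 8 genes. Symbols are the littermate pairs, black bars the 95% interval over 3 and 3 arrays, and grey bars the interval with the littermate pair as a block; the bars of Ifitm1, Ifitm2 and Ifitm6 and of the dimmer Ly6e probe set cross 0.

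Taking 1 probe set per gene, 2 of the 8 genes rose (Ifi27 and Ifi27l2a) and 0 fell. Over all tested genes 0.312% rose and 0.039% fell in the same fit. With the littermate pair as a block 5 of the 8 rose, the added genes being Ifitm3, Bst2 and Ly6e, against 0.531% of all tested genes. The Trex1 KO hearts lay wholly above the Trex1 WT hearts for 6 of the 8 genes, all but Ifitm1 and Ifitm2, where 5.03% of all tested genes showed this. The median log2 difference was 0.64 for the 8 genes and -0.02 for all tested genes. In order of the difference the genes were Ifi27, Ifi27l2a, Bst2, Ifitm3, Ly6e, Ifitm6, Ifitm2 and Ifitm1. The 95% interval of Ifi27 was separate from all the others, and every other neighbour in that order had an overlapping interval.

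**Figure D3:**
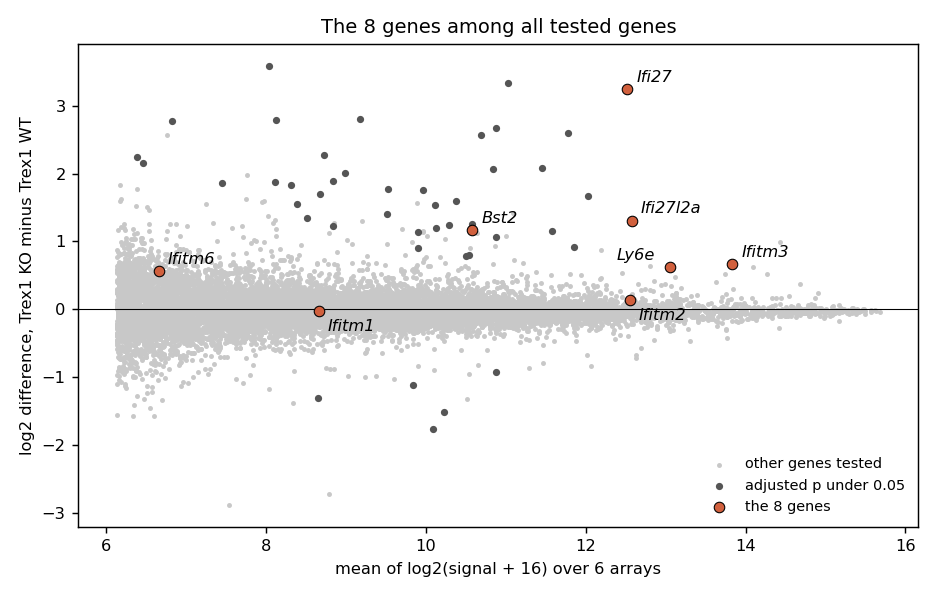
Each point is 1 of 12811 tested genes, by its mean of log2(signal + 16) over 6 arrays (horizontal) and its log2 difference, Trex1 KO minus Trex1 WT (vertical). Dark points are other genes that passed the adjusted p of 0.05 in limma, and orange points the 8 genes; Ifi27 at 3.25 lies near the top, while Ifitm2 at 0.14 and Ifitm1 at -0.03 lie in the bulk of genes.

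The littermate block gave a smaller SE for 7 of the 8 genes, all but Ifitm6. With the block the SE fell from 0.15 to 0.084 for Ifitm3, from 0.20 to 0.14 for Bst2, from 0.11 to 0.076 for Ly6e and from 0.14 to 0.082 for Ifitm2. The median SE of all tested genes was 0.17 without the block and 0.14 with it. The call of Ifi27 held in all 18 alternative settings, with log2 differences from 3.11 to 3.48. That of Ifi27l2a held in 15 of 18 and was lost in limma without an intensity trend (adjusted p = 0.146), with the Actb ratio as a covariate (adjusted p = 0.501 in limma, log2 difference 0.95) and without pair A (limma adjusted p = 0.0748).

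Of the measures of RNA quality, the Actb ratio separated the groups, and the 18S signal and the Gapdh ratio did not. The 3' to 5' ratio of the Actb control was 1.80 to 2.29 in Trex1 WT and 1.60 to 1.68 in Trex1 KO, without overlap (exact permutation p = 0.1, two-sided). The 18S signal was 924 to 13708 in the former and 798 to 2834 in the latter (exact permutation p = 0.3). The 3' to 5' ratio of the Gapdh control was 0.850 to 0.925 in Trex1 WT and 0.841 to 0.885 in Trex1 KO, with overlap. With the Actb ratio as a covariate Ifi27 still passed (log2 difference 3.48, limma adjusted p = 0.00190). The other members did not, and the differences were 0.74 for Bst2, 0.70 for Ifitm3 and 0.63 for Ly6e (limma adjusted p = 0.834, 0.796 and 0.641). Because the Actb ratio did not overlap between the genotypes, this covariate cannot tell RNA quality from genotype. The part of RNA quality in the differences of the 8 genes was not tested.

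**Figure D4:**
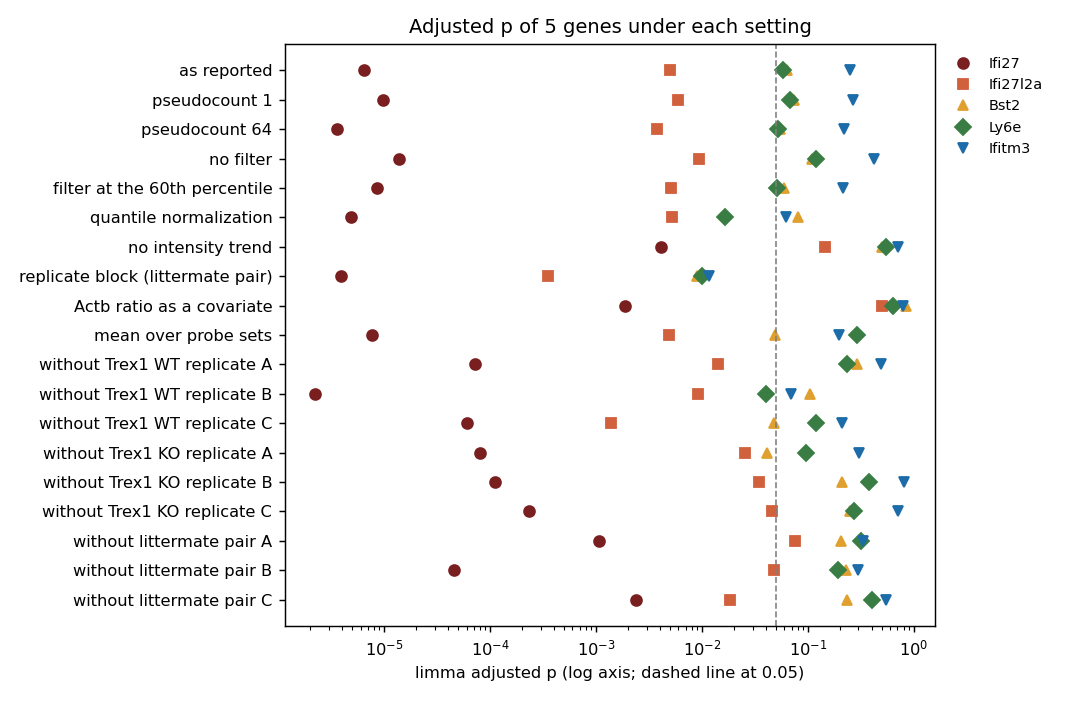
Limma adjusted p (log axis) of the 5 members with the smallest values, as reported and under 18 other settings; the dashed line is 0.05. Ifi27 lies left of the line in every setting shown, Ifi27l2a in 15 of 18, and Ifitm3 with the littermate block alone.

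Relatives of the members that share a family but not the list were mostly dim. Of 21 named relatives, 14 had a probe set of a single gene and 6 were tested, of which 0 passed in either direction. Ifi27l1 is among the other 7 because the gene table gives it as a synonym of Ifi27. The interferon-inducible Ly6 genes Ly6a, Ly6c1 and Ly6c2 also had no such probe set and were not analysed here. Ifi27l2b, which follows Ifi27 on chromosome 12, averaged 68.3 ± 38.4 without and 107 ± 20.8 with the knockout (SD, n = 3), a log2 difference of 0.63 (limma adjusted p = 0.955). Ifitm7 had 45.2 ± 9.06 and 86.3 ± 32.4 (log2 difference 0.70, limma adjusted p = 0.954), and Trarg1, a CD225-domain protein of insulin-responsive vesicles, 47.5 ± 33.3 and 85.3 ± 15.5 (log2 difference 0.82, limma adjusted p = 0.955). Of the Ly6 relatives, Ly6g6c had 127 ± 33.2 and 56.0 ± 37.8 (log2 difference -1.14, limma adjusted p = 0.870), while Ly6k and Lypd1 had log2 differences of 0.05 and -0.05. The Ly6g6c groups did not overlap. All 6 were dim, with group means of 45.2 to 127 beside the highest Bacillus control of 69.8.

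Interferon-stimulated effectors outside the membrane group also rose. Of 28 tested genes of that list, 16 rose and 0 fell, and the median log2 difference was 1.13. The 3 largest were Usp18, which removes ISG15 from proteins, Oas3, which makes the activator of RNase L, and Ifit1, which binds viral RNA. Their log2 differences were 3.34, 2.78 and 2.67 (limma adjusted p = 6.54e-06, 0.00109 and 0.000354). Oas3 was dim without the knockout, its mean going from 27.2 to 282. So was Mx2, also among the 16, whose mean went from 26.9 to 172. Both starting means lay below the highest Bacillus control of 69.8, so the size of these rises is uncertain. Among 14 tested receptors and factors of interferon signalling, 1 rose, the transcription factor Irf7, from 667 ± 124 to 4140 ± 1362 (SD, n = 3, log2 difference 2.57, limma adjusted p = 0.000728), and 0 fell. That list had a median of 0.07. Of 7 tested genes whose products modify or bind the members, such as the IFITM3 ubiquitin ligase Nedd4 and its palmitoyltransferase Zdhhc20, 0 passed in either direction and the median was 0.12. The member of that list with the smallest p was Bcl2, an inhibitor of apoptosis, with a log2 difference of 0.21 (limma adjusted p = 0.955).

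**Figure D5:**
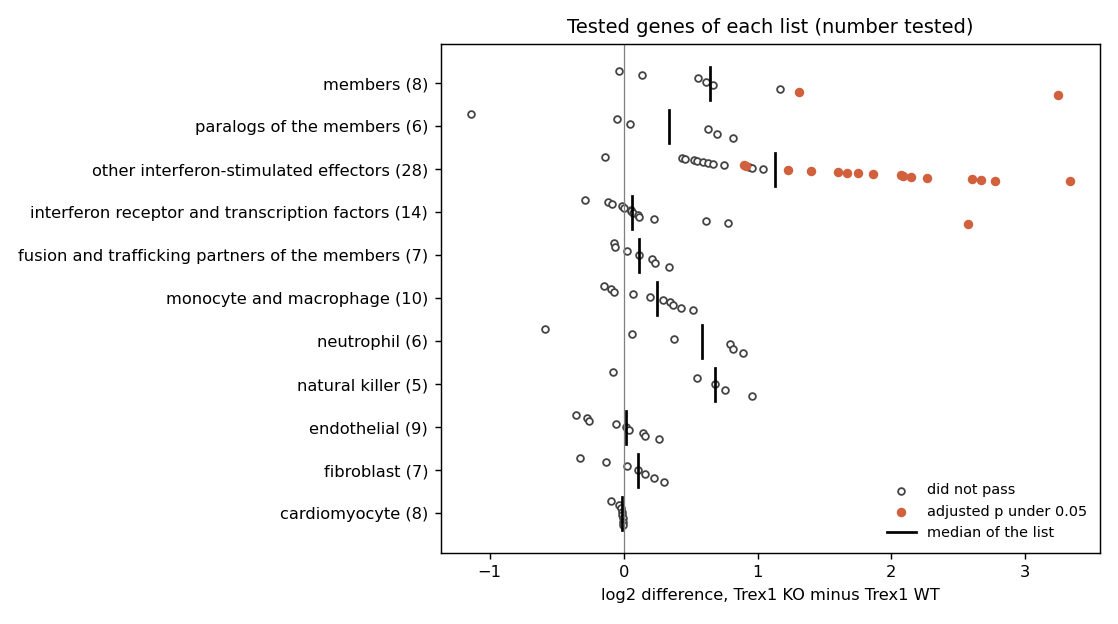
Log2 difference, Trex1 KO minus Trex1 WT, of each tested gene in 11 gene lists, with the number tested in brackets; filled points passed the adjusted p of 0.05 in limma and black bars are list medians. The 8 members have a median of 0.64, the other interferon-stimulated effectors 1.13 and the cardiomyocyte genes -0.01.

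The genes whose levels most resembled those of a member were found by the root mean square distance between their 6 log2 values, each gene centred on its own mean. The nearest to Ifi27 were Usp18 (distance 0.12), Plac8 (0.28), a small cysteine-rich protein, and Oas3 (0.32). Those nearest to Ifi27l2a were Oas2 (0.13), a 2'-5' oligoadenylate synthetase, Rtp4 (0.15), a chaperone of receptor transport, and Lgals9 (0.16), a galectin. Bst2 was nearest to Ddit3 (0.14), the stress transcription factor CHOP, Cfp (0.15), the complement regulator properdin, and Lgals9 (0.15). Ifitm3 was nearest to Trim14 (0.085), Pth2 (0.10) and Cd300ld (0.11), none of which passed (limma adjusted p = 0.777, 0.900 and 0.648). The 3 nearest to Bst2 did not pass either (limma adjusted p = 0.0504 for Ddit3, 0.361 for Cfp and 0.0629 for Lgals9). Usp18, Plac8, Oas3, Oas2 and Rtp4 passed, Oas3 with a dim Trex1 WT mean of 27.2. The distance includes the difference between genotypes, so genes near a member have a similar difference by construction. Whether they passed is therefore no separate result.

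The labelled tissue carried its markers, and no list of cell markers had a gene that passed without the block. Myh6, the adult cardiac myosin heavy chain, had signals of 43983 to 54867, and the 8 cardiomyocyte genes had a median log2 difference of -0.01. In whole tissue a change in the number of cells of a type and a change of RNA per cell cannot be told apart. No tested gene of the endothelial, fibroblast, macrophage, neutrophil, natural killer, plasmacytoid dendritic, lymphocyte, erythroid or atrial marker lists passed (limma adjusted p from 0.126 upward). With the block 1 of them did, the atrial peptide gene Nppa. The median log2 differences were 0.02 for 9 endothelial, 0.11 for 7 fibroblast, 0.25 for 10 macrophage, 0.58 for 6 neutrophil, 0.68 for 5 natural killer and 0.34 for 3 atrial genes. The other lists had 1 to 3 tested genes: Cd8a alone for lymphocytes (-0.29), Alas2 and Slc4a1 for erythroid cells (0.50 and 0.07), and Klk1, Cox6a2 and Il3ra for plasmacytoid dendritic cells (-0.02, -0.01 and 0.20). Of the 8 genes, Bst2, Ifitm6, Ly6e and Ifitm2 were highest in Trex1 KO B. Ifi27, Ifi27l2a and Ifitm3 were highest in Trex1 KO C, and Ifitm1 in Trex1 WT B. The summed markers of 4 blood cell types, neutrophils, natural killer cells, macrophages and erythroid cells, were highest in Trex1 KO B. Those of lymphocytes and of plasmacytoid dendritic cells, the latter mostly Cox6a2, were highest in Trex1 WT C. The summed signal of the 9 neutrophil markers with a probe set went from 870 to 659 in pair A, from 821 to 1867 in pair B and from 722 to 1500 in pair C. That of 5 natural killer markers went from 581 to 704, from 830 to 2187 and from 583 to 1015. The sum of 10 macrophage markers went from 19056 to 20981, from 25665 to 27828 and from 17088 to 22758, and that of 3 erythroid markers from 2336 to 2438, from 4619 to 5194 and from 1825 to 4201. The part of these cells in the differences of the 8 genes was not tested.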

How the data were processed

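Total RNA from 6 hearts was biotin-labelled and hybridised to 1-colour expression arrays. The authors deposited linear intensity values, 1 per probe set and array, summarised with MAS5 per the submitters' processing notes, with the version and settings not among the sources used here. The 2% trimmed mean of each array was 500.0, so values were not scaled again. Of 45101 probe sets, 64 were array controls. Symbols came from the platform annotation, 34741 of 34945 single-symbol probe sets being matched to the RefSeq gene table by identifier. The brightest single-symbol probe set stood for a gene.

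Values were analysed as log2(signal + 16), which understates the change of dim genes. Probe sets at or above the 40th percentile of the mean (log2 6.13, signal 53.8) were tested, which left 27022. The fit was limma 3.58.1 (R 4.3.3; lmFit, eBayes with an intensity trend), 3 Trex1 KO against 3 Trex1 WT arrays, two-sided, with Benjamini-Hochberg adjustment over all tested probe sets and a threshold of 0.05. It was tested on simulated data. Pairing rests on the design text. Deviations from the group means correlated at 0.147 to 0.192 across probe sets within littermate pairs. Between Trex1 WT and Trex1 KO animals of different pairs they correlated at -0.161 to 0.0101. Centring each group on its own mean ties the 2 ranges, because positive values within pairs bring lower values between pairs. All p-values rest on 6 animals with 1 array each, and that number limits precision. The fit left 4 residual degrees of freedom, and 2 with the littermate pair as a block. In limma each spread estimate also drew on the spread of the other probe sets.

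Named genes were every member, each tested relative, and from the lists of interferon-stimulated effectors, interferon signalling and partners of the members the 3 largest that passed or, if none, the one with the smallest p. For Ifi27, Ifi27l2a, Ifitm3 and Bst2 the 3 most similar genes were also named. The rule did not cover the cell marker lists, and markers named beside a result, and Nedd4 and Zdhhc20, were chosen after their values were seen. The members and lists were chosen with earlier results of these data known. Alternatives were other pseudocounts, filters, normalization and spread estimates, the replicate block, the Actb ratio as a covariate, the mean over a gene's probe sets, and leaving out each array. Leaving out each littermate pair was added after seeing the data.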

Additional observations from a re-analysis of the deposited data

How the results depend on the processing

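With 66 probe sets called in all as reported, 121 were called with the replicate block (littermate pair), 28 without an intensity trend, 9 with the Actb ratio as a covariate, 23 without pair A and 38 without pair C, and 40 (without Trex1 KO B) to 94 when 1 array was left out. The number of members called higher was 2 as reported, 5 with the replicate block, and 1 (Ifi27) without an intensity trend, with the Actb ratio as a covariate or without pair A. It was 2 or 3 in the other settings, the third being Ly6e after quantile normalization (limma adjusted p = 0.0164) or without Trex1 WT B (0.0398), and Bst2 without Trex1 WT C or Trex1 KO A or over 12811 genes (limma adjusted p = 0.0483, 0.0410 and 0.0490). The last of these differs from the reported fit for Bst2 only in the number of features tested and the spread estimated from them. Leaving out pairs was added after seeing the data. The cause of the other changes was not tested. No member was called lower in any setting. Ifitm3 passed with the block alone (limma adjusted p from 0.0117 to 0.808 over 18 settings), and Ifitm1, Ifitm2 and Ifitm6 passed in none (limma adjusted p from 0.663 upward). Ifitm1 was above 0 in 4 of 18 settings, and Ifitm6 in 16 of 17, with -0.17 under the Actb ratio. It was left out by the filter at the 60th percentile. Under pseudocounts of 1 and 64 and quantile normalization 6 of the 7 within-array ratios kept their sign, and that of Ifitm3 to Ifitm6 went from 0.11 to -0.00076 at a pseudocount of 1. Dim signals limit Ifitm6 and the relatives.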
